A study of Mus musculus with 2 samples.

Results

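Ribosome biogenesis genes encode the factors that transcribe, modify, cut and assemble ribosomal RNA in the nucleolus. The 51 genes examined here were chosen by name, and all 51 were among the 23284 gene symbols that the deposited files list. They fall into 3 classes by known role, with 9 genes of the small nucleolar ribonucleoproteins (snoRNPs), 35 genes of pre-ribosomal RNA processing and subunit assembly, and 7 genes of the RNA polymerase I machinery. Leukemic stem cells (LSCs) were profiled by RNA-seq from mice with experimental chronic myeloid leukemia (CML), to ask what loss of the adaptor protein STAP-1 changes in their expression profile. In this model, lineage-negative Sca-1+ c-Kit+ (LSK) bone marrow cells are given human BCR-ABL and green fluorescent protein (GFP) on a retrovirus and are injected with normal bone marrow cells into C57BL/6SJL recipients after lethal irradiation. Donors were wild type (WT) mice or STAP-1 KO mice with a targeted disruption of the STAP-1 locus, both on the C57BL/6J background, and the mice of the study were 8 to 14 weeks old. GFP+ CD45.2+ LSK cells were sorted at day 11 after transplantation, so both genotypes carried BCR-ABL. There was 1 library per genotype, and the sources do not say how many mice went into it. No value below therefore has a replicate error, no test of the genotype was possible and no p-value is given.

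In textbook terms, RNA polymerase I copies the ribosomal DNA into a long precursor. Box C/D snoRNPs methylate this precursor and box H/ACA snoRNPs convert uridines in it to pseudouridine, each guided by a small RNA. Further factors cut the precursor, fold it and load ribosomal proteins to build the small and the large subunit. Cells that grow fast need many ribosomes, and the transcription factor MYC is known to act on genes of all 3 classes.

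The values are FPKM (fragment counts scaled by exon length and by library size), a level per transcript length. Where a gene is given as a pair of values, WT comes before STAP-1 KO. Stap1 had 62.0 FPKM in WT LSCs and 0.309 FPKM in STAP-1 KO LSCs, which matches the labels. Of the sorting markers, the Sca-1 gene Ly6a had 285 and 106 FPKM, and Kit had 468 and 30.1 FPKM. The lineage markers Cd3e, Cd8a and Itgam lay below 2 FPKM in both libraries. Ptprc, which encodes CD45 and its B220 form, had 107 and 38.2 FPKM. All 11 comparable genes of a list of 12 mast cell and basophil markers were lower by 2-fold or more in STAP-1 KO LSCs. Their summed level was 52321 FPKM in WT LSCs and 5298 FPKM in STAP-1 KO LSCs, and Mrgprb2 was listed at 0 in the latter. All 7 listed primary granule markers were at least 2-fold higher, with summed levels of 579 and 4691 FPKM. These marker levels thus differed together with the genotype. Fewer cells of a type and less RNA per cell cannot be told apart in bulk RNA, and the part of composition in the values below was not tested.

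The level of ribosome biogenesis genes was higher in STAP-1 KO LSCs for most members. The 51 genes summed to 2976 FPKM in WT LSCs and 5478 FPKM in STAP-1 KO LSCs, or 0.458% and 0.907% of all FPKM. Ratios of single genes are given as STAP-1 KO over WT, and log2 ratios were taken after adding 0.1 FPKM to both values. The log2 ratio was above 0 for 45 members and below 0 for 6. Its median over the members was 0.72, against -0.04 for the 10974 genes of the files averaging 1 FPKM or more. With the 2-fold cut-off of the study and at least 0.1 FPKM in both libraries, 15 of the 51 members were higher in STAP-1 KO LSCs, against a background of 12.3% of all genes compared. The lower side held 2 members, against a background of 22.9%. The remaining 34 members lay between these limits. At a 1.5-fold cut-off 32 members were on the higher side, against a background of 25.6%, and 3 on the lower side, against 32.8%. After corrections for gene length and GC content, described with the length of the genes, the higher side held 5 of the 51 members with transcript length, a share near the 10.6% of all genes, and 14 with coding length, against 11.1%. The lower side held 0 members with both, against 17.1% and 17.9% of all genes.

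**Figure D1:**
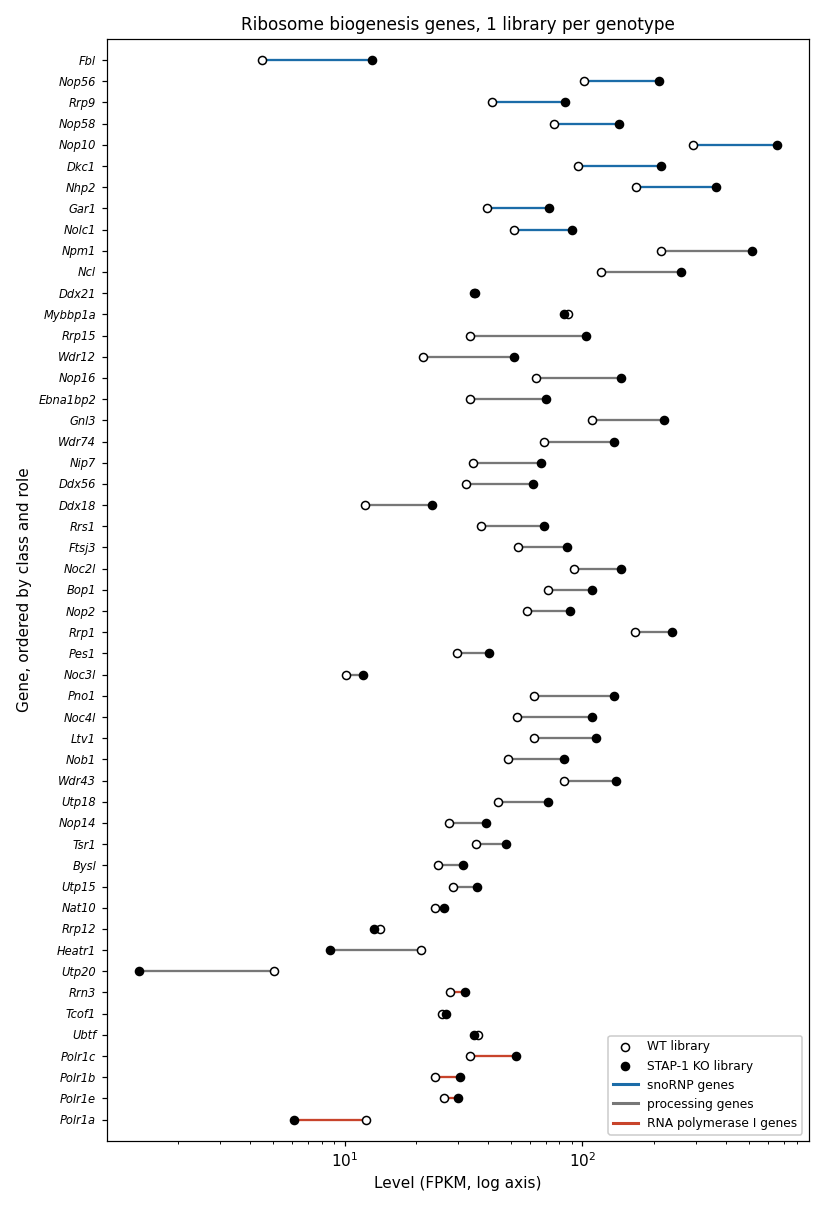
Level of each of the 51 genes (FPKM, log axis) in the WT library (open circles) and the STAP-1 KO library (filled circles), 1 library each, with genes ordered by class and role. The filled circle lies to the right for all 9 snoRNP genes and far to the left for Utp20, Heatr1 and Polr1a.

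The members kept much of their order. Nop10, Npm1 and Nhp2 had the highest levels in both libraries, and Spearman's rank correlation between the libraries was 0.96 across the 51 genes, which are not independent replicates. Fbl had the lowest listed value in the WT library and Utp20 in the STAP-1 KO library. Members with a higher level tended to have a higher ratio, with a rank correlation of 0.61 between log2 ratio and mean level. Across 10511 genes that average 1 FPKM or more and have a coding sequence it was 0.21.

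The snoRNP genes had the most similar ratios. All 9 had a log2 ratio above 0, from 0.81 to 1.52 with a median of 1.05, and 6 of them passed the 2-fold cut-off, against the 12.3% of all genes. With correction 2 passed by transcript length (Nop58 and Fbl), against 10.6% of all genes. By coding length 4 passed (Nop56, Fbl, Rrp9 and Dkc1), against 11.1%. By transcript length the class ran from 0.53 to 1.65, wider than the 0.0082 to 0.85 of the RNA polymerase I genes. Among the box C/D proteins, the scaffold gene Nop56 had 101 FPKM in WT LSCs and 210.4 FPKM in STAP-1 KO LSCs. Its paralog Nop58 had 75.7 and 143 FPKM. Rrp9, which encodes a protein of the U3 particle that guides early cuts for the small subunit, had 41.6 and 84.0 FPKM, a ratio of 2.02. Both scaffold genes and Rrp9 thus lay close to a doubling.

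Fbl, on chromosome 7 of GRCm38 from 28169710 to 28179269, encodes the methyltransferase of the same particle. It was listed at 4.49 FPKM in WT LSCs and 13.1 FPKM in STAP-1 KO LSCs. The ratio of 2.91 was the highest of the class, but the listed values were far below those of its partners, and the highest of the 3 core genes stood 22.5 times above the lowest in the WT library. The cause was not tested, and these values need not be the level of Fbl, since some genes that every cell uses were listed at 0 in the same files. About 26 WT reads and 106 STAP-1 KO reads stand behind the coding sequence of Fbl, an estimate taken from the spacing of the smallest values. The 95% exact interval of the ratio runs from 1.88 to 4.65, and intervals of this kind cover counting error only.

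The 4 box H/ACA core proteins were higher by similar factors, with log2 ratios that spanned 0.30. The pseudouridine synthase gene Dkc1 on chromosome X had 96.1 FPKM in WT LSCs and 215 FPKM in STAP-1 KO LSCs. Nop10, on chromosome 2 from 112261926 to 112263269, had 292 and 655 FPKM. Nhp2 had 168 and 363 FPKM. These 3 genes passed the cut-off as deposited, with ratios between 2.16 and 2.24. With the corrections for length described with the length of the genes, the log2 ratios by transcript and by coding length were 0.53 and 0.63 for Nop10 and 0.67 and 0.72 for Nhp2, below the cut-off. Dkc1 had 0.97 and 1.17 and passed with the latter only. Gar1 had 39.7 and 72.3 FPKM, a ratio of 1.82. Nolc1, which encodes a chaperone of snoRNPs, had 51.4 and 90.5 FPKM, a ratio of 1.76. Neither of the latter genes passed the cut-off.

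The RNA polymerase I genes had the smallest median of the 3 classes. As deposited, none of the 7 passed the cut-off in either direction, against 12.3% and 22.9% of all genes. The median log2 ratio was 0.20, with a range from -0.98 to 0.64, and all 9 snoRNP genes lay above all 7 of these genes. With correction 0 passed on the higher side by transcript length, against 10.6% of all genes. By coding length 2 did (Polr1b and Tcof1), against 11.1%. The lower side held 0 with both, against 17.1% and 17.9%. The largest subunit gene Polr1a, on chromosome 6 from 71909053 to 71984935, had 12.3 FPKM in WT LSCs and 6.15 FPKM in STAP-1 KO LSCs. It was lower by a factor of 1.995 and thus just outside the cut-off, which it passed with a log2 ratio of -1.02 when the libraries were scaled to their totals without the 50 highest genes. The subunit gene Polr1b had 24.1 and 30.6 FPKM, and Polr1e had 26.3 and 30.1 FPKM. Polr1c, whose product is shared with RNA polymerase III, had 33.7 and 52.4 FPKM and the highest ratio of the class, 1.56. The large catalytic subunit and the shared subunit differed in direction as deposited, but with correction both lay above 0, at 0.0082 and 0.25 by transcript length and at 0.29 and 0.67 by coding length. The initiation factor gene Rrn3 had 27.7 and 32.0 FPKM. Ubtf, which encodes the ribosomal DNA binding factor UBF, had 36.4 and 35.1 FPKM. Tcof1, which encodes the nucleolar cofactor treacle, had 25.7 and 26.7 FPKM. For Polr1e, Ubtf and Tcof1 the counting interval of the ratio included 1.

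The processing genes spread most widely, with a median log2 ratio of 0.70 and a range from -1.81 to 1.62. Of the 35 genes, 9 were at least 2-fold higher and 2 lower by 2-fold or more in STAP-1 KO LSCs, against 12.3% and 22.9% of all genes. With correction by transcript length 3 passed on the higher side (Rrp15, Wdr12 and Ncl), a share below the 10.6% of all genes. By coding length 8 passed, against 11.1% of all genes. The lower side held 0 with both, against 17.1% and 17.9% of all genes. The 17 large subunit factors had a median of 0.92 and all had a log2 ratio above 0. The 14 small subunit factors had a median of 0.46, with 11 above 0. With correction for coding length these medians were 0.97 and 0.76, with 13 of the 14 small subunit genes above 0, and for transcript length 0.65 and 0.45. A further 4 genes serve the nucleolus more generally.

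Rrp15, a pre-60S factor gene on chromosome 1 from 186720978 to 186749358, had 33.6 FPKM in WT LSCs and 104 FPKM in STAP-1 KO LSCs. Its ratio of 3.09 was the highest of all members. Wdr12 had 21.4 and 51.3 FPKM and the pre-60S factor gene Nop16 had 63.8 and 146 FPKM. Wdr12, Pes1 and Bop1 encode the PeBoW complex of large subunit assembly, in which the log2 ratios ran from 0.45 to 1.26. Pes1 gave the lower end with 29.6 and 40.4 FPKM. Noc3l, a pre-60S transport factor gene, had 10.1 and 11.9 FPKM with a counting interval of the ratio that included 1, and Rrp1, which acts in maturation of large subunit RNA, had 166 and 239 FPKM. The nucleostemin gene Gnl3 had 109.6 and 221 FPKM and was just inside the cut-off with a ratio of 2.01. Wdr74 was just outside it with 69.0 and 136 FPKM and a ratio of 1.97. The other 9 large subunit genes were Nop2, Bop1, Noc2l, Ftsj3, Rrs1, Ddx18, Ddx56, Nip7 and Ebna1bp2, with ratios from 1.53 to 2.08.

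Pno1, which encodes a late pre-40S factor, had the highest ratio of the small subunit genes with 62.6 FPKM in WT LSCs and 136 FPKM in STAP-1 KO LSCs. Noc4l, which acts in nuclear maturation of the small subunit, had 53.0 and 110.03 FPKM, and Ltv1, a pre-40S factor gene, had 62.7 and 114 FPKM. Wdr43, a gene of the UTP-A part of the small subunit processome, had 83.8 and 138 FPKM and the highest mean level of this role. At the other end, Rrp12, which acts in export of the subunits, had 14.1 and 13.2 FPKM, with a counting interval of the ratio that included 1. Heatr1, on chromosome 13 from 12395027 to 12440289, encodes a large scaffold protein of the small subunit processome and had 20.9 and 8.73 FPKM. Utp20, on chromosome 10 from 88746607 to 88826804, encodes another very large component of that particle and had 5.04 and 1.36 FPKM. Heatr1 and Utp20 were the 2 members past the cut-off on the lower side, by factors of 2.39 and 3.70. The other 7 genes of this role were Nat10, Utp15, Bysl, Tsr1, Nop14, Utp18 and Nob1, with ratios from 1.09 to 1.72, and for Nat10 the counting interval included 1.

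The general nucleolar genes differed in ratio as deposited. Npm1, the nucleophosmin gene on chromosome 11 from 33152287 to 33163206, had 213 FPKM in WT LSCs and 517 FPKM in STAP-1 KO LSCs, a ratio of 2.42. Ncl, the nucleolin gene on chromosome 1 from 86344719 to 86359400, had 119.95 and 259 FPKM, a ratio of 2.16. The Myb-binding protein gene Mybbp1a had 87.2 and 83.7 FPKM, and the RNA helicase gene Ddx21 had 35.03 and 35.3 FPKM. Npm1 and Ncl thus passed the cut-off, while for Mybbp1a and Ddx21 the counting interval of the ratio included 1. Ncl stayed past the cut-off with the transcript length (1.88) and the coding length (1.24), and Npm1 did not (0.60 and 0.88). Ddx21 had 0.41 and 0.37, and Mybbp1a had 0.37 and 0.96, above Npm1 with the coding length only.

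The ratio of the members followed the length of their coding sequences. Spearman's rank correlation between log2 ratio and coding length was -0.76 across the 51 genes. Across 10511 genes of the files it was -0.35, so this relation between the libraries was not limited to ribosome biogenesis. All 31 members with a coding sequence of up to 2000 bases had a log2 ratio above 0, with a median of 0.95, whereas the 20 longer members had a median of 0.29. Over all genes averaging 1 FPKM or more the medians were 0.16 for 7668 genes of up to 2000 bases and -0.69 for 2843 longer genes. Polr1a (5151 bases), Heatr1 (6429 bases) and Utp20 (8367 bases) have the longest coding sequences of the members. Among members of either length the median thus lay above that of all genes.

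**Figure D2:**
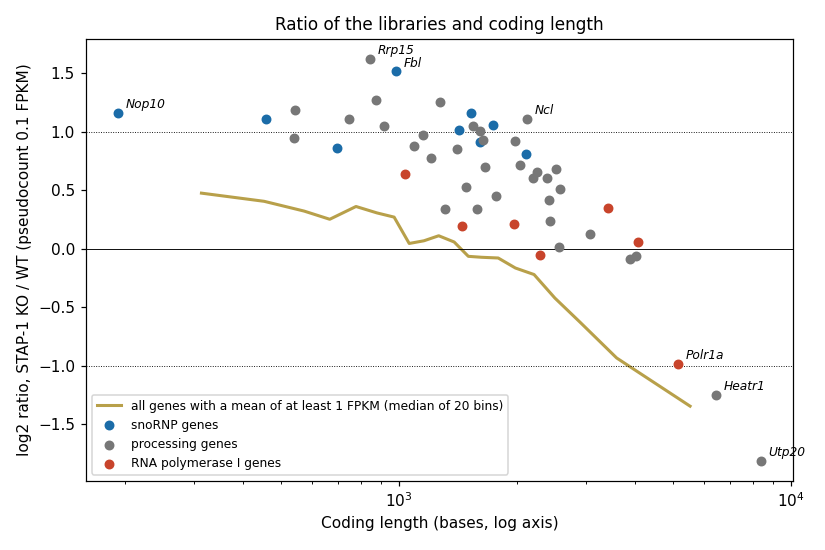
log2 ratio of STAP-1 KO over WT against coding length (bases, log axis) for each member, with 1 point per gene coloured by class. The line gives the median log2 ratio of all genes averaging 1 FPKM or more in 20 bins of coding length and the dotted lines mark a 2-fold ratio. Most members lie above the line, and Polr1a, Heatr1 and Utp20 lie at its long end.

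A correction was made by taking the median of genes of the same length and then of the same GC content off each log2 ratio. With the length of the longest coding transcript, the medians were 0.94 for the snoRNP genes, 0.57 for the processing genes and 0.29 for the RNA polymerase I genes, and 49 of the 51 members had a value above 0. With the coding length, they were 0.96, 0.85 and 0.31, and 50 members had a value above 0. The median of all genes averaging 1 FPKM or more is 0 after either correction. The order of the class medians thus stayed, but the snoRNP and RNA polymerase I genes now overlapped. Polr1b and Tcof1 reached 1.20 and 1.13 with the coding length, above the snoRNP median. Polr1a, which was lower as deposited, had a value of 0.0082 with the transcript length and 0.29 with the coding length. Heatr1 lay at -0.36 with the transcript length and at 0.014 with the coding length. Utp20 stayed below 0 under both, at -0.87 and -0.53. The cause of the relation with length was not tested.

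**Figure D3:**
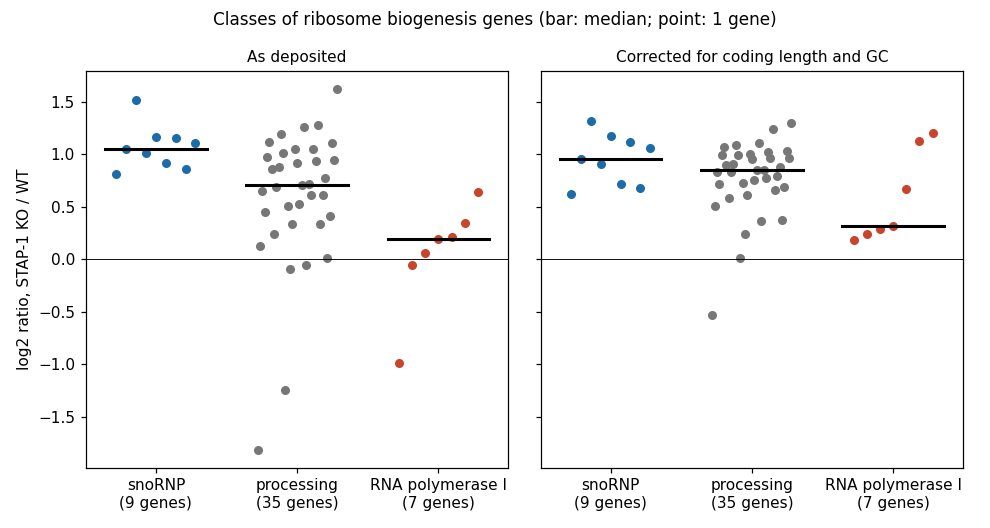
log2 ratio of STAP-1 KO over WT by class, as deposited (left) and after the correction for coding length and GC content (right). Each point is 1 gene and each bar is the median of its class. The classes snoRNP and RNA polymerase I do not overlap on the left and overlap on the right.

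RNA polymerase I genes that are not members gave another picture. Of a list of further ribosome biogenesis genes, 8 belong to this machinery. All 8 lay within the cut-off, which 12.3% of all genes passed on the higher side and 22.9% on the lower side. The median log2 ratio of the 8 genes was 0.73, against 0.20 for the 7 members. With the coding length the medians were 0.43 for these 8 genes and 0.31 for the members, whereas with the transcript length they were 0.24 and 0.29. The small subunit gene Polr1d had 123 FPKM in WT LSCs and 201 FPKM in STAP-1 KO LSCs, and Taf1c, with the longest coding sequence of the 8, had 10.02 and 8.11 FPKM. The order of both sets thus depended on the correction.

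As deposited, the wider pathway had a median close to that of the members. The list held 106 other ribosome biogenesis genes that the files name, of which 91 had a log2 ratio above 0. On the higher side 22 of the 106 genes (20.8%) passed the 2-fold cut-off, against 12.3% of all genes. The lower side held 2 (1.89%), against 22.9%, and the median log2 ratio was 0.64. After correction 19 passed on the higher side by transcript length, against 10.6% of all genes, and 24 by coding length, against 11.1%. The lower side then held 0 with both. The corrected medians were 0.53 and 0.67, against 0.60 and 0.85 for the members. Znhit3, which encodes a snoRNP assembly factor, had 39.3 and 110 FPKM. The exosome subunit genes Exosc8 and Exosc2 had 83.1 and 229 FPKM and 41.0 and 104 FPKM. By the mean of both libraries, the most abundant of the list were Rsl1d1 (167 and 345 FPKM), Emg1 (113 and 246 FPKM) and Exosc7 (106 and 229 FPKM). The lowest ratios were those of Urb1 (4.32 and 1.72 FPKM), Urb2 (11.5 and 5.25 FPKM) and the GTPase gene Bms1 (54.0 and 28.03 FPKM). These 3 genes have coding sequences of 3852 to 6831 bases, while Mdn1, with the longest of the list (16767 bases), had a log2 ratio of 0.43 at 0.992 and 1.37 FPKM.

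Related gene lists were compared by count and median only. The 73 cytosolic ribosomal protein genes averaging 1 FPKM or more had a median log2 ratio of 0.61. In this list 12 of the 74 genes compared (16.2%) were at least 2-fold higher, near the 12.3% of all genes. Rpl11 and Rpl26, which every cell uses, were listed at 0 in both libraries and 3 more genes of the list at 0 in the WT library, so that a low listed value need not be the level of the gene. The 75 mitochondrial ribosomal protein genes had a median of 0.93. Of the 76 genes of this list that were compared, 30 (39.5%) were at least 2-fold higher, against 12.3% of all genes. After correction by transcript length 13 were, against 10.6% of all genes. By coding length 6 of the 76 were, a share below the 11.1% of all genes. Ribosomal protein genes have short coding sequences, with medians of 453 and 588 bases against 1638 for the members. With the coding length the corrected medians were 0.29 and 0.58, against 0.85 for the members. With the transcript length they were 0.20 and 0.62, against 0.60 for the members, so the mitochondrial list lay below the members under the former only. The 13 RNA polymerase II subunit genes had a median of 0.70, from Polr2a (21.9 and 4.03 FPKM) to Polr2i (25.7 and 61.7 FPKM). The 11 RNA polymerase III subunit genes had a median of 0.08, from Polr3gl (15.6 and 4.88 FPKM) to Polr3k (38.1 and 74.9 FPKM). As deposited, the largest subunit was the lowest of RNA polymerase II, as Polr1a was among the RNA polymerase I genes. In RNA polymerase III the largest subunit gene Polr3a (9.45 and 5.08 FPKM) was not the lowest. With the transcript length Polr2a had -1.31 and Polr1a 0.0082. With the coding length Polr1a (0.29) lay above Polr1e (0.24) and Ubtf (0.18). By transcript and by coding length the medians were 0.44 and 0.59 for RNA polymerase II and 0.02 and 0.27 for RNA polymerase III.

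**Figure D4:**
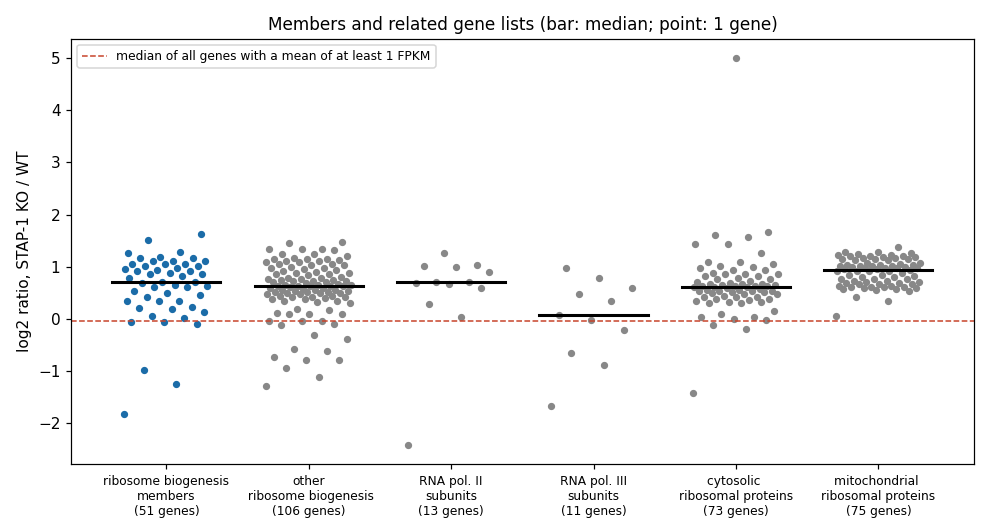
log2 ratio of STAP-1 KO over WT for the 51 members (blue) and 5 related lists (grey), 1 point per gene averaging 1 FPKM or more. The bars are medians and the dashed line is the median of all such genes (-0.04). The mitochondrial ribosomal proteins have the highest median (0.93) and the RNA polymerase III subunits the lowest (0.08).

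Myc, the gene of a known activator of ribosome biogenesis, had 59.3 FPKM in WT LSCs and 169 FPKM in STAP-1 KO LSCs. MYC binds the E-box CACGTG, and promoters of the members were searched for it. RefSeq promoter windows of GRCm38.p6, from 250 bases before to 50 bases after the start of transcription, were found for 45 members. The letters CACGTG, which read the same on both strands, were present for 10 of the 45 (22.2%), against 12.4% of 7891 genes that average 1 FPKM or more and have a window. The 10 members were Ltv1, Mybbp1a, Nop2, Pes1, Pno1, Rrn3, Tsr1, Utp18, Utp20 and Wdr43, and none of them was a snoRNP gene. Their median log2 ratio was 0.53, against 0.86 for the 35 other members with a window. With correction for coding length these medians were 0.72 and 0.85, and for transcript length 0.41 and 0.67. The difference was not tested.

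The promoter windows of 4 of these genes are shown because they hold the same E-box while their ratios lie far apart. As deposited these ran from 2.16 for Pno1 down to 0.270 for Utp20. With correction for coding length the log2 ratios were 0.66 for Pno1, 1.02 for Nop2, 0.69 for Utp18 and -0.53 for Utp20. Each window is written 5′ to 3′ on the strand of the gene. Capitals mark CACGTG and the ETS-type motif CCGGAAG, which is CTTCCGG on the other strand.
Pno1: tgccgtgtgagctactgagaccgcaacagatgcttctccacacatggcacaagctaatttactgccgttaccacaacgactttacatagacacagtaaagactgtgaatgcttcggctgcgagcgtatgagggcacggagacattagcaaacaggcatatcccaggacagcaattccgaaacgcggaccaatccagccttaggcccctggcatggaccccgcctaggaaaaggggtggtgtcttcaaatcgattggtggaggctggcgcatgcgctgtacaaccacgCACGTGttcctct
Nop2: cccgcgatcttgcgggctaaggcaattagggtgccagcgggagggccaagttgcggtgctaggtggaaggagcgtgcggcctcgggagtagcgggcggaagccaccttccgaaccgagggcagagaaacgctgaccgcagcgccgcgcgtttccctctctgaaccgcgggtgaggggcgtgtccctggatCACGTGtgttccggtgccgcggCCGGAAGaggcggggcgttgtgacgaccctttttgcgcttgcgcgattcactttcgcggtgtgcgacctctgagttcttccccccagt
Utp18: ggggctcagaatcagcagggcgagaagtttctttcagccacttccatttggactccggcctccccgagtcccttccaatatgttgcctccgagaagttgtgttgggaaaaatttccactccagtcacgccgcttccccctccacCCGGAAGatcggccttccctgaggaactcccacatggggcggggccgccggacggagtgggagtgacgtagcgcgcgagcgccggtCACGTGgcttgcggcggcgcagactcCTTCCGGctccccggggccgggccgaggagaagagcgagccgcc
Utp20: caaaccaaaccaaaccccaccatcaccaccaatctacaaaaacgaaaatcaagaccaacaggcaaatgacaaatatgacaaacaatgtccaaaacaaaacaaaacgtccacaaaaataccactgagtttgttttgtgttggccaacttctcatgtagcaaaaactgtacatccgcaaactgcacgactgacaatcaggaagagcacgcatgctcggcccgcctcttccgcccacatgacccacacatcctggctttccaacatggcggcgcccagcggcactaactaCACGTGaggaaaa
The window of Pno1 lies at chr11:17211540-17211839 on the minus strand, that of Nop2 at chr6:125131633-125131932 on the plus strand, that of Utp18 at chr11:93885717-93886016 on the minus strand and that of Utp20 at chr10:88826765-88827064 on the minus strand. In Pno1 and Utp20 the E-box begins 37 bases after the start of transcription, and in Nop2 and Utp18 it begins 60 and 20 bases before it. Utp18 holds CCGGAAG at 2 places and Nop2 at 1 place.

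Other short motifs were counted in the same way on both strands. CCGGAAG was present for 17 of the 45 members (37.8%), against 21.4% of the 7891 genes, and the shorter CGGAAG, which it contains, for 25 members (55.6%), against 37.2%. The E-box variant CACGCG was present for 16 members (35.6%), against 20.2%, and CATGTG for 11 members (24.4%), against 10.5%. Members with CATGTG had a median log2 ratio of 0.98 as deposited, against 0.67 without it, but with correction for coding length these were 0.69 and 0.81. For CACGCG they were 0.58 and 0.86 as deposited and 0.65 and 0.90 corrected. For CCGGAAG they were 0.70 and 0.75 as deposited and 0.72 and 0.88 corrected. None of these differences was tested. The TATA motif TATAAA was present for 2 members (4.44%), against 8.44%. Such matches describe the letters of these windows and are not binding sites.

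The members lie on 19 chromosomes, with 10 of them on chromosome 11. By the GENCODE M21 annotation, 7 members hold small nucleolar RNA genes inside their span on the same strand. These hosts are Nop56, Nop58, Dkc1, Ncl, Gnl3, Wdr43 and Tsr1, with 21 such genes in all, among them Snord57 and Snord110 in Nop56 and Snord82 and Snora75 in Ncl. All 7 hosts had a log2 ratio above 0, with a median of 1.01, against 0.67 for the 44 other members. Exons of 17 members overlap those of another gene, and the library kit does not mark strand, so that reads of such pairs cannot be told apart there. Among them, Heatr1 overlaps Lgals8, which had 65.9 FPKM in WT LSCs and 29.5 FPKM in STAP-1 KO LSCs. Partners could also differ in direction from the member, as Parp3 (19.2 and 3.86 FPKM) did from Rrp9 and Srr (5.76 and 3.21 FPKM) from Tsr1. The median log2 ratio was 0.65 for these 17 members and 0.80 for the 34 without an overlap. This order turned with both corrections, at 0.67 and 0.58 with the transcript length and at 0.91 and 0.84 with the coding length.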

How the data were processed

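RNA-seq of 1 WT and 1 STAP-1 KO library of CML LSCs was analysed from the FPKM values that the authors deposited. Libraries came from SMART-Seq cDNA, and single reads of 75 bases were obtained. The authors aligned them to mm10 using TopHat 2.0.13 and Bowtie2 2.2.3 and ran Cuffnorm 2.2.1. The annotation and the scaling of the libraries are not given in the sources used here. FPKM is divided by library size, so depth was estimated from the steps between values below 0.3 FPKM in genes with 1 annotated transcript. This gave effective depths of 7500000 reads for WT and 10470000 for STAP-1 KO, at which 47.5% of 322 and 48.6% of 397 low values lay within 0.01 of a whole read, so the depths are rough. For the 49 members with a coding sequence of at least 500 bases, a median of 486 WT and 874 STAP-1 KO reads was estimated in the coding sequence. Intervals of ratios are exact conditional binomial intervals on these reads and cover counting error only.

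Ratios were computed in Python 3.11.15 (scipy 1.17.1, pandas 2.3.3, numpy 2.4.6). Of the gene symbols, 20911 matched GENCODE M21 (GRCm38, the build of mm10) as written, 1915 through an older symbol and 458 did not match. The length and GC correction used 20 bins each. The members, lists, motifs and alternatives were chosen with earlier results of these data known. The correction with coding length was added after seeing the data. Every member is named. Values were printed for all snoRNP, RNA polymerase I and general nucleolar members, for the 3 highest and 3 lowest log2 ratios and the 2 highest levels of each subunit role, for the members next to the cut-off, and for the 3 highest ratios, lowest ratios and levels of the other pathway genes. Polr1d, Taf1c, Mdn1, Polr3a, Rpl11, Rpl26 and the overlapping genes were named after their values were seen. Calls, the depth estimate and the correction by transcript length were tried on simulated libraries. These held planted changes larger than the 2-fold cut-off and a planted relation with transcript length. No relation with GC content was planted, and the correction by coding length was not tried. Of 6 listed lymphoid markers 4 could be compared and 3 were at least 2-fold higher, against 12.3% of all genes. The 6 summed to 6.05 and 26.0 FPKM, and 1 gene gave 17.8 FPKM of the STAP-1 KO sum. Of 6 erythroid and megakaryocyte markers 1 was lower, against 22.9% of all genes. Of 8 LSK and progenitor markers 1 was at least 2-fold higher (12.5%) and 2 were lower (25%), near the shares of all genes.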

Additional observations from a re-analysis of the deposited data

How the results depend on the processing

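With a 1.5-fold cut-off 32 members passed on the higher side, against 25.6% of all genes, and 5 passed at 2-fold once transcript length and GC content were corrected for, against 10.6%. The corrections for transcript length and for coding length both left 0 members on the lower side, and under the latter the log2 ratio of Heatr1 turned from -1.25 to 0.014. The median log2 ratio of all members was 0.60 after the former correction and 0.85 after the latter. For the processing genes it was 0.57 and 0.85, for the snoRNP genes 0.94 after the former and for the RNA polymerase I genes 0.31 after the latter. Other medians moved by less than 0.1, and other counts by at most 1.5 times, under the floors, pseudocounts, level filter and 3 scalings tried. The scalings multiplied the STAP-1 KO values by 0.978 to 1.04, with 13 to 17 members at least 2-fold higher and 2 to 3 lower, the latter including Polr1a when the 50 highest genes were left out of the totals. The longest coding transcript of Ncl (8202 bases), Nop58 (9507 bases) and Wdr12 (10012 bases) is far longer than the coding sequence, so the correction by transcript length is uncertain for them, and they are 3 of the 5 members that passed with it. No paired analysis was possible because there is 1 library per genotype. For the same reason, no replicate could be left out, and genotype and differences in mice, sorting or preparation cannot be told apart.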
